A study of Mus musculus with 6 samples.

Results

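Replication and mitosis genes were measured by RNA-seq in whole ovaries of mice 9 days after birth (9 dpp), in 3 WT libraries and 3 libraries with Srsf1 knocked out in ovarian granulosa cells (cKO). The set holds 41 genes that act in DNA replication and cell division, taken from the deposited expression table by gene symbol, and all 41 were found among its 47205 genes. Srsf1 encodes a splicing factor, and the study set out to compare ovarian expression with and without it in granulosa cells. The sources used here give no strain, Cre driver, allele or number of animals per library, and the controls are labelled only WT. Nothing in the labels says that replicates came from separate animals, so p-values reflect only how these samples vary, possibly for technical reasons. Expression is given as FPKM, fragment counts that the authors scaled by gene length and by a factor for each library. This factor matched a median-of-ratios size factor rather than the library's total of reads. Values are at the level of the gene, so that isoforms are not told apart.

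A cell copies its genome only once per division because origins are loaded with the MCM helicase before S phase and opened by kinases during it. Entry into mitosis needs cyclin-dependent kinase 1 (Cdk1) with its A and B cyclins, after which kinetochores bind chromosomes to the spindle and a checkpoint holds the cell until every chromosome is attached. In the ovary of the young mouse these genes are active mainly in granulosa cells, which divide as follicles grow, and in some stromal and endothelial cells. The oocyte is arrested in meiotic prophase, does not replicate its DNA and stores the transcripts of several cell cycle genes, B-type cyclins among them.

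No replication or mitosis gene passed the test between genotypes, yet most had a slightly lower mean in cKO. Of the 41 genes, 37 had a lower mean in cKO and 4 a higher mean, against 50% lower among the 14714 genes tested. Lower and higher means are counted here and below on the log2(FPKM + 1) scale. A difference near 0 can have another direction in mean FPKM. Differences were small, with a median log2 fold change of -0.13 (cKO minus WT on the log2(FPKM + 1) scale) where the median over all genes tested was 0.00. At an adjusted p under 0.05 (limma, Benjamini-Hochberg over all genes tested) 0 of the 41 were called, and 0.0204% of all genes tested were. The smallest adjusted p among the 41 was 0.76 (limma), and limma-voom on recovered reads also called 0. At an unadjusted p under 0.05, limma gave 3 of the 41 as lower, Pola1, Nuf2 and Bub1b, and 0 as higher, against 2.7% lower and 3.64% higher in the background. On recovered reads limma-voom gave 4 as lower at that level, Pola1, Bub1b, Cenpf and Kif20a, against 3.17%. Every cKO library lay below every WT library in 5 of the 41 genes, Pola1, Rrm2, Ccnb1, Bub1b and Kif20a, against 5.89% of all genes tested. None of the 41 had every cKO library above every WT library, against 6.37%. The genes were listed with earlier results of these data known, so these counts describe the list and are not a test of it.

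The data bound the differences more closely than the calls do. The unadjusted 95% interval of the log2 fold change lay within 1 of 0, a 2-fold change either way, in all 41 genes, and in 91.2% of all genes tested (limma). Its lowest bound was -0.64, for Top2a, and its highest 0.36, for Mad2l1. On recovered reads, where low genes are not drawn toward 0 by the pseudocount, the bounds ran from -0.78 to 0.45 (limma-voom).

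Libraries held 16840923 to 18721895 recovered reads, of which the 41 genes took 0.300% to 0.351%. Srsf1 stood at 39.9, 49.6 and 46.3 FPKM in WT replicates 1, 2 and 3 and at 20.3, 26.9 and 21.4 FPKM in cKO, so that the groups did not overlap. At a log2 fold change of -0.96 with SE 0.134, the targeted gene was itself not called (adjusted p by limma = 0.32), and the 0 calls among the 41 genes are to be read beside that. Within WT, replicate 1 stood apart for mitosis genes. It was the lowest of the WT libraries in 19 of the 26 cyclin, mitosis and cytokinesis genes, where it was lowest in 33% of all genes tested. Summed over the 26 genes, levels were 493, 589 and 584 FPKM in WT and 505, 497 and 498 FPKM in cKO. WT replicate 1 thus lay below every cKO library, while the other WT libraries lay above them all. Summed over the 15 replication genes, levels were 439, 455 and 434 FPKM in WT and 437, 411 and 424 FPKM in cKO. Without WT replicate 1, the median log2 fold change of the 26 genes went from -0.16 to -0.25, and 8 of the 41 genes had an unadjusted limma p under 0.05, all lower. Without WT replicate 2 that median was -0.08 and the count was 0, and without WT replicate 3 or cKO replicate 2 the count was 1. The share of all genes tested at that level is not given for these fits, so the counts stand without a background.

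**Figure D1:**
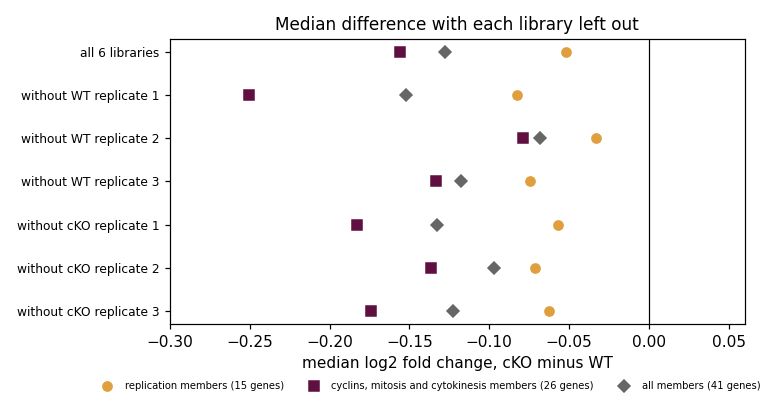
Median log2 fold change (x axis, cKO minus WT on log2(FPKM + 1)) of the 15 replication genes, the 26 cyclin, mitosis and cytokinesis genes and all 41, with all 6 libraries and with each left out in turn (rows). Every median is below 0, and that of the 26 genes runs from -0.25 without WT replicate 1 to -0.08 without WT replicate 2.

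The promoters of these genes show what they share apart from the list itself, and the division into replication and mitosis genes can be seen in them. RefSeq promoters (build GRCm38.p6, 250 bases before to 50 after the start) were matched for 34 of the 41 genes, in 35 promoters. Motifs searched on both strands were the E2F site, bound by the transcription factors that switch on S phase genes (TTTGGCGC, TTTCCCGC, TTTCGCGC or TTTGCCGC), and the CHR, the cell cycle gene homology region bound by the MuvB complex (TTTGAA or TTCGAA). The CCAAT box (CCAAT), bound by NF-Y, the GC box (GGGCGG), whose letters can share bases with an E2F site, and the TATA box (TATAAA) were searched too. An E2F site was found in 7 of 14 promoters of replication genes and in 1 of 21 promoters of the other genes, against 2.26% of all 32851 promoters and 3.9% of those of genes tested. A CHR was found in 15 of 21 promoters of cyclin, mitosis and cytokinesis genes and in 2 of 14 of replication genes, against 19.2% of all promoters and 13.8% of those of genes tested. CCAAT boxes were common to both, in 11 of 14 and 16 of 21 promoters against 37.4% of all promoters. GC boxes were found in 10 of 14 and 18 of 21 against 35.7% of all promoters and 61.7% of those of genes tested. The TATA box was found in 0 of the 35, in 13.6% of all promoters and in 7.26% of those of genes tested. A match is a description of the letters and not evidence of binding.

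**Figure D2:**
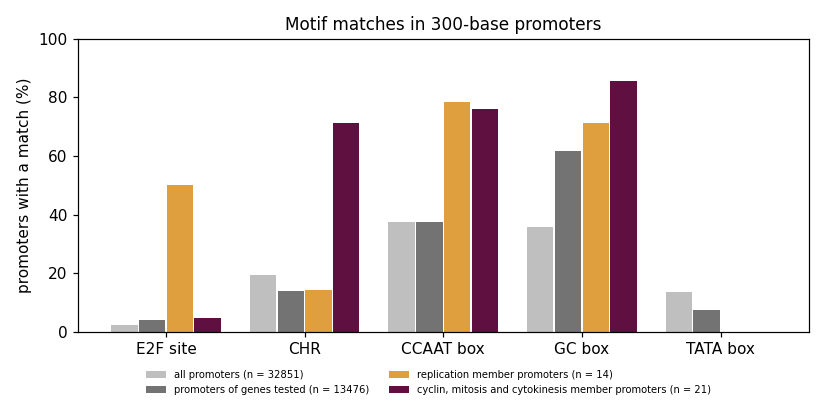
Share of 300-base promoters with at least 1 match (y axis, percent) for 5 motifs (x axis), in all promoters, promoters of genes tested, and promoters of the replication and of the other member genes. E2F sites stand out in replication genes, at 50%, and CHR matches in the cyclin, mitosis and cytokinesis genes, at 71.4%.

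The 140 bases before the start are shown for replication genes with E2F sites (Mcm6, Pola1), a B cyclin with only CCAAT boxes (Ccnb1), a gene with all 3 motifs (Cdk1) and mitosis genes with CHR and CCAAT matches (Top2a, Cdc20). They read 5′ to 3′ on the gene's strand, and capitals mark E2F sites, CHR and CCAAT matches in either orientation.
Mcm6: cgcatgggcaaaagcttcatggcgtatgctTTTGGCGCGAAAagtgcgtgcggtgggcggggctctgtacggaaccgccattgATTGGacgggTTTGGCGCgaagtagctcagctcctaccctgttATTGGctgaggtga
Pola1: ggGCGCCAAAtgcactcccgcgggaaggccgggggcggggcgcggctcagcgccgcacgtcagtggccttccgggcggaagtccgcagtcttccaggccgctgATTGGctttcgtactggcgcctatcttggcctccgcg
Ccnb1: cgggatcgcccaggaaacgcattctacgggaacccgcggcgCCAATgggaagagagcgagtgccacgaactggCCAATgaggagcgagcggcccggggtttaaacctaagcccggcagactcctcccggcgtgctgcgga
Cdk1: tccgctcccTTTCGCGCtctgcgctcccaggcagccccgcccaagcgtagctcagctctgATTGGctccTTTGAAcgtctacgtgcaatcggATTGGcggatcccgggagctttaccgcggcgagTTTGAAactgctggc
Top2a: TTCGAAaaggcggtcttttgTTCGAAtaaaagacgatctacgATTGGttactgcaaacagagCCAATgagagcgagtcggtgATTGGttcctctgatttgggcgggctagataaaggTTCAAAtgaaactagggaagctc
Cdc20: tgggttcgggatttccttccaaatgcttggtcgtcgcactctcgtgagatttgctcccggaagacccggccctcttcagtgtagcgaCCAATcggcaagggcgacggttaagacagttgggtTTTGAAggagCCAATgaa
These are Mcm6 at chr1:128359706-128359845, Pola1 at chrX:93632156-93632295, Ccnb1 at chr13:100786487-100786626, Cdk1 at chr10:69352913-69353052, Top2a at chr11:99024190-99024329 and Cdc20 at chr4:118437344-118437483, all on the minus strand of GRCm38.p6. In Mcm6 a forward and a reverse E2F site overlap at -110 and -106 before the start, and another lies at -47. Pola1 has its E2F site at -138. Spaced CCAAT boxes recur in the others, at -99 and -67 in Ccnb1 and at -80 and -48 in Cdk1, while a CHR lies near the start, at -15 in Cdk1, -23 in Top2a and -18 in Cdc20. Cdk1 has another CHR at -71, and Top2a has others at -120 and -140.

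Replication licensing genes held nearly level between genotypes. Of the 9 genes, 8 had a lower and 1 a higher mean in cKO, with a median log2 fold change of -0.05. An unadjusted limma p under 0.05 was found in 0 of them, against 2.7% of all genes tested lower and 3.64% higher. Groups overlapped in every case, where 5.89% of all genes tested lay wholly below WT and 6.37% wholly above. The helicase subunit genes Mcm2 to Mcm7 stood close to each other per length, from 26.4 FPKM for Mcm4 to 44.1 FPKM for Mcm6 in WT and from 25.4 to 40.9 FPKM in cKO. Mcm6 (chromosome 1, 128259312 to 128287442, GRCm39 as in the table, as are all gene positions below) was at 41.5, 49.1 and 41.8 FPKM in WT replicates 1, 2 and 3 and at 42.5, 35.3 and 44.8 FPKM in cKO. WT replicate 2 was the highest and cKO replicate 2 the lowest, with the other 4 libraries between 41.5 and 44.8. Mcm3 showed the smallest difference of the 41, averaging 28.1 ± 1.02 FPKM in WT against 28.1 ± 3.02 in cKO (SD, n = 3 each), with a log2 fold change of 0.00 (95% interval -0.24 to 0.24, limma). It is counted as lower at a log2 fold change of -0.0009, though its mean FPKM was slightly higher in cKO (28.14 against 28.06).

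The loaders and activators of the helicase differed little as well. Cdt1, which brings the helicase to origins together with Cdc6, was the only replication gene with a higher mean log2(FPKM + 1) in cKO. It was at 32.7, 32.8 and 28.8 FPKM in WT and 36.2, 28.3 and 32.0 FPKM in cKO. Its groups overlapped fully, and its direction reversed with quantile normalization (-0.00), without WT replicate 3 (-0.03) and without cKO replicate 1 (-0.06). Cdc6 was at 3.95, 5 and 4.49 FPKM in WT and 4, 3.94 and 4.04 FPKM in cKO, where WT replicate 1 lay among the cKO libraries. Gins2, a subunit of the GINS complex that joins the active helicase, had the lowest fold change among these genes. It was at 33.6, 28.2 and 30.6 FPKM in WT and 28.9, 26.3 and 24.8 FPKM in cKO (log2 fold change of -0.20 with SE 0.101, adjusted p by limma = 0.791). Only WT replicate 2 and cKO replicate 1 overlapped there.

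**Figure D3:**
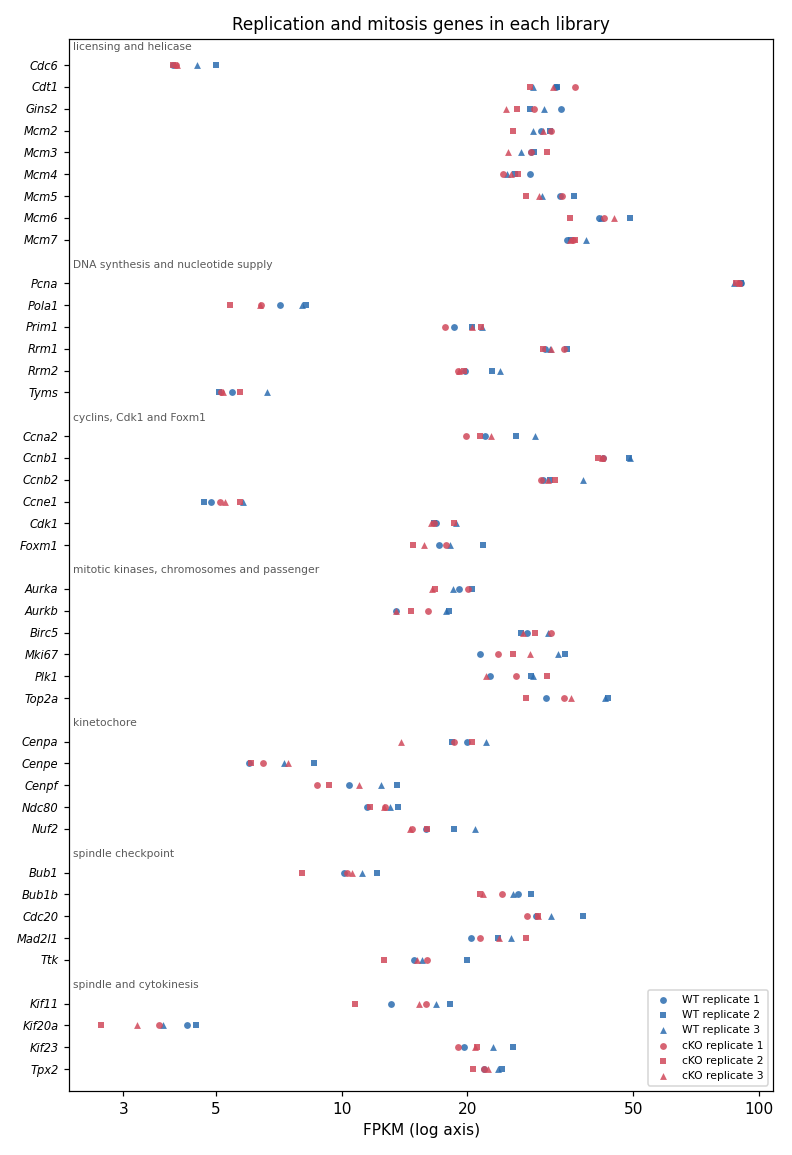
FPKM (x axis, log scale) of the 41 genes (rows, by role) in each library (WT blue, cKO red, with a symbol for each replicate number). Levels run from 2.65 FPKM for Kif20a in cKO replicate 2 to 90.7 FPKM for Pcna in WT replicate 1, and the genotypes overlap in 36 genes.

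DNA synthesis genes spanned the widest range of levels and held the gene with the smallest p. All 6 had a lower mean in cKO, with a median log2 fold change of -0.05. At an unadjusted limma p under 0.05, 1 was lower, against 2.7% of all genes tested. Pola1, the catalytic subunit of DNA polymerase alpha, which starts each new strand with the primase (chromosome X, 92348372 to 92675993, minus strand), was at 7.11, 8.19 and 8.03 FPKM in WT and 6.41, 5.41 and 6.36 FPKM in cKO. Every cKO library lay below every WT library, and the gap between WT replicate 1 and cKO replicate 1 was the narrowest. Its log2 fold change was -0.32 (SE 0.106, 95% interval -0.57 to -0.06, limma adjusted p = 0.76). Between 618 and 885 reads were recovered for it in each library. Wherever the groups do not overlap, an exact two-sided permutation test must return p = 0.1, its smallest value for 3 against 3 libraries. It did so for Pola1, as for Rrm2, Ccnb1, Bub1b and Kif20a, and adds nothing to the lack of overlap. In 17 other settings the fold change of Pola1 stayed between -0.37 and -0.25, with adjusted p of 0.656 or more.

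The primase that partners with polymerase alpha was closer to level. Prim1, the catalytic primase subunit, was at 18.6, 20.6 and 21.6 FPKM in WT and 17.7, 21.6 and 20.5 FPKM in cKO (log2 fold change -0.02, 95% interval -0.28 to 0.23, limma). Whether Pola1 and Prim1 differ in their response was not tested. Pcna, the sliding clamp of the replicative polymerases, was the highest of the 41 genes, at the 96.7th percentile of level among genes tested. It was at 90.7, 90.6 and 87.1 FPKM in WT and 89.4, 87.9 and 89.8 FPKM in cKO, a spread of 1.04-fold over all 6 libraries. A pseudogene copy, Pcna-ps2, took from 14 to 387 recovered reads in a library, where Pcna took 1969 to 2131, so that reads shared between the copies could move its value.

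The nucleotide supply genes all had a lower mean in cKO, with log2 fold changes of -0.19 for Rrm2, -0.01 for Rrm1 and -0.08 for Tyms. Rrm2, the small subunit of ribonucleotide reductase and the one whose amount limits the enzyme in S phase, was at 19.7, 22.9 and 24.0 FPKM in WT and 19, 19.6 and 19.1 FPKM in cKO. The groups did not overlap, but WT replicate 1 exceeded cKO replicate 2 by less than the spread within cKO (log2 fold change of -0.19 with SE 0.0954, adjusted p by limma = 0.791). Rrm1, the large subunit, was at 30.8, 34.7 and 31.6 FPKM in WT and 34.1, 30.3 and 31.8 FPKM in cKO, with full overlap. Tyms, which makes thymidylate, averaged 5.73 ± 0.802 FPKM in WT against 5.34 ± 0.322 in cKO (SD, n = 3 each).

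Among the cyclins 1 mean was higher and 3 were lower in cKO, and differences between cyclins were not tested. Ccne1, the cyclin E that acts at the start of S phase, was at 4.87, 4.67 and 5.81 FPKM in WT and 5.11, 5.72 and 5.27 FPKM in cKO, a higher mean in cKO with overlapping groups. Ccna2, the cyclin A of S phase and mitotic entry, was at 22.1, 26.2 and 29.0 FPKM in WT and 19.8, 21.5 and 22.8 FPKM in cKO. Only WT replicate 1 and cKO replicate 3 overlapped (log2 fold change of -0.25 with SE 0.118, adjusted p by limma = 0.776). Ccna2 shares 863 bases with Exosc9 on the opposite strand, and no source used here gives the strandedness of the counting, so that reads of the pair cannot be told apart there.

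Ccnb1, the main mitotic cyclin and a transcript the oocyte also stores (chromosome 13, 100915247 to 100922994, minus strand), was at 42.2, 48.8 and 49.1 FPKM in WT and 42.2, 41.1 and 42.0 FPKM in cKO. The groups did not overlap at full precision, but WT replicate 1 and cKO replicate 1 were equal to 3 digits, and the other WT libraries stood clear of the rest. Its log2 fold change was -0.15 (SE 0.0894, adjusted p by limma = 0.807). Ccnb2 was at 30.3, 31.6 and 37.9 FPKM in WT and 30.1, 32.5 and 31.2 FPKM in cKO, with only WT replicate 3 apart. Cdk1, the kinase these cyclins activate, was level at 17.4 ± 1.19 and 17.2 ± 1.18 FPKM (SD, n = 3 each). Foxm1, the transcription factor that drives mitotic genes, was at 17.1, 21.8 and 18.2 FPKM in WT and 17.8, 14.8 and 15.7 FPKM in cKO (log2 fold change of -0.22 with SE 0.118, adjusted p by limma = 0.798), and cKO replicate 1 lay within WT.

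The chromosome proteins Mki67 and Top2a varied most between WT libraries. Mki67, which coats mitotic chromosomes and is the usual marker of dividing cells (chromosome 7, 135291513 to 135318286, minus strand), was at 21.4, 34.2 and 33.0 FPKM in WT and 23.7, 25.8 and 28.3 FPKM in cKO. WT replicate 1 was the lowest of all 6 libraries and the other WT libraries the highest, so the log2 fold change was -0.16 (SE 0.182, adjusted p by limma = 0.881) with all libraries. It was -0.37 without WT replicate 1, -0.04 without WT replicate 2, -0.07 without WT replicate 3 and -0.10 without cKO replicate 1. Top2a, the topoisomerase that untangles sister chromatids, was at 30.8, 43.6 and 42.8 FPKM in WT and 34, 27.6 and 35.4 FPKM in cKO (log2 fold change of -0.25 with SE 0.161, adjusted p by limma = 0.821). Here too WT replicates 2 and 3 stood above every other library, and WT replicate 1 lay within cKO.

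The mitotic kinases and survivin showed no shared direction beyond their spread. Aurka, the kinase of spindle poles, was at 19.4 ± 1.07 and 17.7 ± 1.99 FPKM in WT and cKO (SD, n = 3 each). Aurkb, the kinase of the chromosomal passenger complex, was at 13.5, 18.1 and 17.8 FPKM in WT and 16.1, 14.6 and 13.5 FPKM in cKO. Its partner in that complex, Birc5 (survivin), was at 28.6 ± 2.27 and 29.3 ± 2.31 FPKM, a slightly higher mean in cKO that reversed with quantile normalization and without WT replicate 2 or cKO replicate 1. Plk1, the polo kinase of mitotic entry, ran from 22.1 to 31.0 FPKM, with cKO replicate 2 the highest and cKO replicate 3 the lowest of all 6 libraries.

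Kinetochore genes had a median log2 fold change of -0.19, with all 5 means lower in cKO, and 3 of 5 lower without WT replicate 2. The median of the spindle checkpoint genes was also -0.19, with 4 of 5 means lower, and went to -0.07 without WT replicate 2 and -0.10 without cKO replicate 2. That of the kinetochore genes went to -0.13 without WT replicate 3. Nuf2, a subunit of the NDC80 complex that grips microtubules (chromosome 1, 169325503 to 169359033, minus strand), was at 15.9, 18.6 and 20.9 FPKM in WT and 14.7, 16 and 14.5 FPKM in cKO. WT replicate 1 and cKO replicate 2 overlapped (log2 fold change -0.27, SE 0.113, limma adjusted p = 0.773). Its partner Ndc80 was at 11.5, 13.7 and 13.0 FPKM in WT and 12.7, 11.7 and 12.7 FPKM in cKO (log2 fold change -0.04), so that these subunits were not at matching fold changes, a difference that was not tested. The transcribed pseudogene 2700099C18Rik, which the table annotates with the Ndc80 protein, held 31.3% as many recovered reads, and values of either may be uncertain where reads are shared.

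Cenpf, a large kinetochore and spindle protein, was at 10.4, 13.6 and 12.5 FPKM in WT and 8.71, 9.35 and 11 FPKM in cKO (log2 fold change of -0.30 with SE 0.13, adjusted p by limma = 0.773). WT replicate 1 and cKO replicate 3 overlapped. Cenpe, the kinetochore motor, was at 7.29 ± 1.28 and 6.66 ± 0.697 FPKM (SD, n = 3 each). Cenpa, the histone that marks the centromere, was at 19.9, 18.4 and 22.2 FPKM in WT and 18.6, 20.6 and 13.9 FPKM in cKO, where cKO replicate 3 alone lay apart.

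Among spindle checkpoint genes, Bub1b stood out and Mad2l1 went the other way. Bub1b, which encodes the BubR1 kinase of the mitotic checkpoint complex (chromosome 2, 118428684 to 118472073, plus strand), was at 26.4, 28.4 and 25.8 FPKM in WT and 24.3, 21.4 and 21.8 FPKM in cKO. The groups did not overlap, and for this gene WT replicate 1 lay between the other WT libraries. The log2 fold change was -0.25 (SE 0.0878, 95% interval -0.45 to -0.04, limma adjusted p = 0.768) and ran from -0.30 to -0.21 over 17 other settings. The exact permutation test of Bub1b returned the same smallest p = 0.1, which follows from the lack of overlap. Mad2l1, another part of the same inhibitory complex, was at 20.4, 23.7 and 25.4 FPKM in WT and 21.4, 27.7 and 23.8 FPKM in cKO. Its higher mean reversed without WT replicate 1 or cKO replicate 2.

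The other checkpoint genes had lower means with overlap. Bub1, the kinase that recruits the checkpoint to kinetochores, was at 11.2 ± 1.03 and 9.64 ± 1.39 FPKM (SD, n = 3 each). Ttk, the kinase that starts checkpoint signalling, was at 14.9, 20 and 15.6 FPKM in WT and 16, 12.7 and 15.1 FPKM in cKO, with the replicates numbered 2 at the extremes. Cdc20, the activator of the anaphase-promoting complex that the checkpoint restrains, was at 29.3, 37.9 and 31.7 FPKM in WT and 27.8, 29.5 and 29.5 FPKM in cKO, and WT replicate 2 carried most of the gap.

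Spindle and cytokinesis genes had lower means in cKO in all 4 cases, with a median log2 fold change of -0.17, and cKO replicate 2 was the lowest library in 3 of them. Kif20a, the kinesin of the central spindle, was the lowest expressed of the 41, at 4.25, 4.47 and 3.73 FPKM in WT and 3.66, 2.65 and 3.24 FPKM in cKO. The groups did not overlap, narrowly so between WT replicate 3 and cKO replicate 1 (log2 fold change of -0.30 with SE 0.131, adjusted p by limma = 0.773), on 199 to 317 recovered reads. On recovered reads the fold change was -0.39 (limma-voom), since the pseudocount of 1 draws in a gene this low. Kif20a shares 4930 bases with Cdc23 on the opposite strand, so that its reads are uncertain. Kif11, the motor that separates spindle poles, was at 13.2, 18.2 and 16.9 FPKM in WT and 15.9, 10.7 and 15.4 FPKM in cKO. Kif23, which bundles midzone microtubules, was at 22.8 ± 3.03 and 20.3 ± 1.16 FPKM, and Tpx2, a spindle assembly factor and activator of Aurora A, at 23.3 ± 1.24 and 21.6 ± 0.908 FPKM (SD, n = 3 each).

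**Figure D4:**
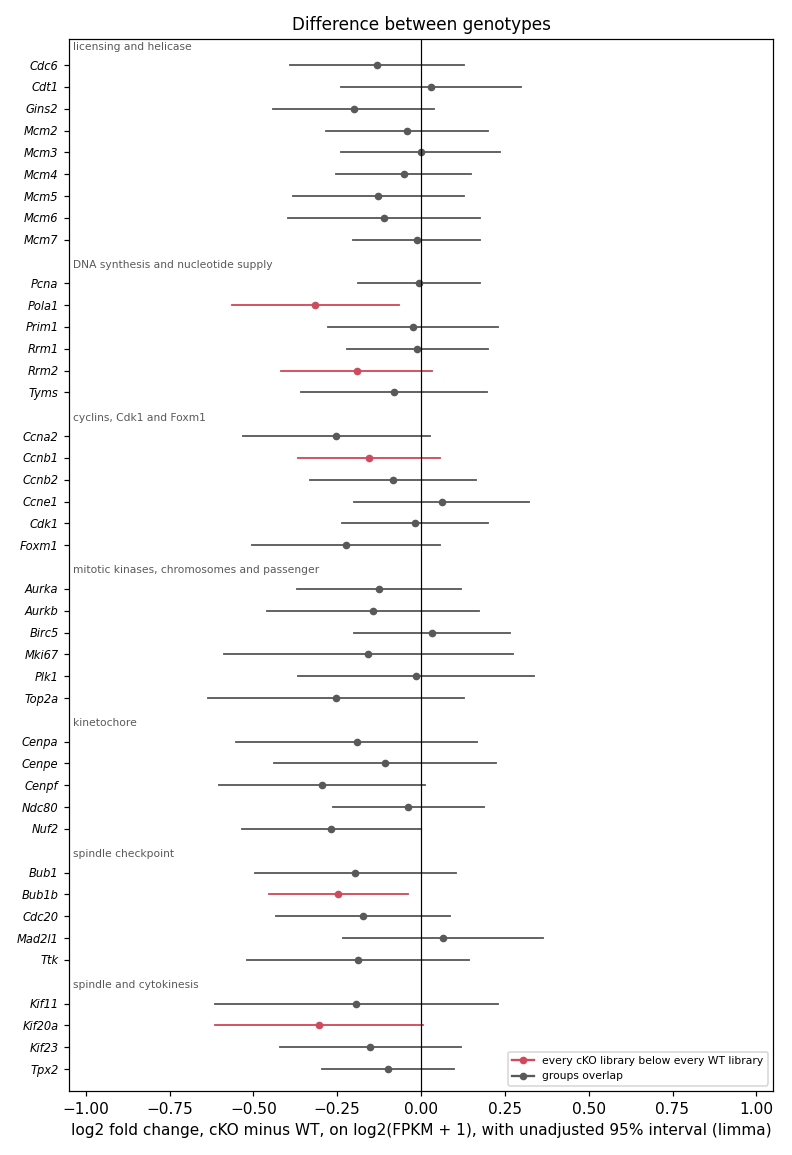
Log2 fold change of the 41 genes (x axis, cKO minus WT on log2(FPKM + 1), with unadjusted 95% limma intervals) by role (rows). Red marks the 5 genes whose cKO libraries all lie below all WT libraries, and every interval lies within 1 of 0.

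By library, the genotypes overlapped in the scores of some role groups and not in others. Each role was scored in a library by averaging, over its genes, the distance of log2(FPKM + 1) from that gene's WT mean. Licensing genes scored 0.00, 0.05 and -0.05 in the WT libraries against -0.01, -0.13 and -0.08 in cKO, so that cKO replicate 1 lay within WT. DNA synthesis genes scored -0.08, 0.02 and 0.06 in WT against -0.12, -0.11 and -0.09 in cKO, narrowly without overlap. All 15 replication genes scored -0.03, 0.04 and -0.004 in WT against -0.05, -0.12 and -0.09 in cKO, also without overlap. The 26 cyclin, mitosis and cytokinesis genes scored -0.15, 0.09 and 0.06 in WT against -0.12, -0.17 and -0.14 in cKO, with WT replicate 1 within cKO. Kinetochore genes scored -0.15, 0.07 and 0.08 in the WT libraries against -0.19, -0.16 and -0.18 in cKO, where WT replicate 1 lay next to cKO and the groups narrowly did not overlap. For mitotic kinases and chromosome proteins, WT replicate 1, at -0.21, lay below all cKO libraries, which ran from -0.16 to -0.05. Spindle and cytokinesis genes showed the lowest score of any library, -0.32 in cKO replicate 2.

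**Figure D5:**
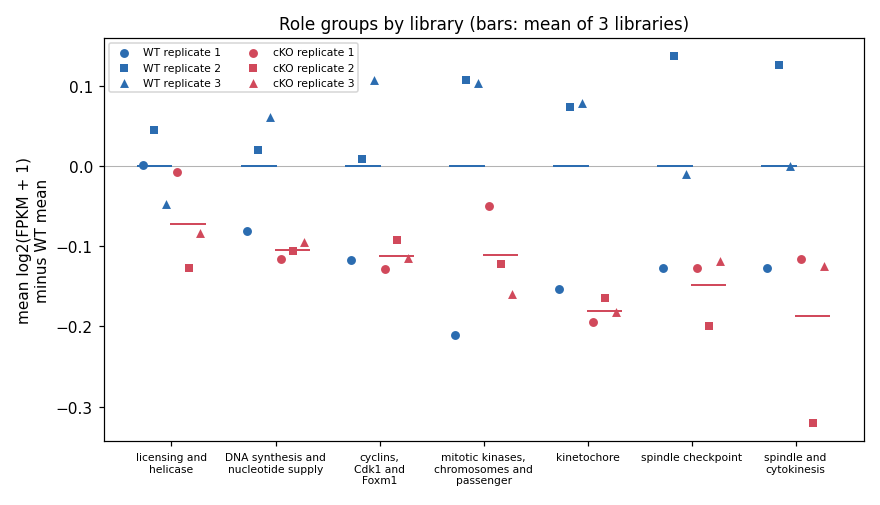
Score of each role group (x axis) in each library, as mean log2(FPKM + 1) minus the WT mean (y axis), with bars at the mean of 3 libraries. WT replicate 1 (blue circles) lies between or below the cKO libraries in 4 groups, from -0.12 to -0.21, and just above them in licensing, DNA synthesis and kinetochore genes.

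In wider lists of the same machinery the median fold changes were nearer 0 than in the 15 and 26 genes, which was not tested, and 0 genes were called (limma and limma-voom). Of 49 other replication genes, 31 had a lower and 18 a higher mean in cKO, with a median log2 fold change of -0.03. At an unadjusted limma p under 0.05 there were 0, against 2.7% of all genes tested lower and 3.64% higher. The smallest p was that of Uhrf1, which carries DNA methylation through replication, averaging 111 ± 2.79 FPKM in WT against 97.6 ± 4.48 in cKO (SD, n = 3 each; log2 fold change -0.18, limma adjusted p = 0.773). Wdhd1, which links the helicase to polymerase alpha, was at 6.98 ± 0.611 and 5.83 ± 0.614 FPKM. The chromatin assembly factor gene Chaf1a was at 27.3 ± 4.39 and 21.7 ± 4.53 FPKM, and the origin firing factor gene Ticrr at 7.93 ± 0.65 and 6.43 ± 1.47 FPKM.

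Of 90 other mitosis genes, 69 had a lower and 21 a higher mean in cKO, with a median log2 fold change of -0.09. At an unadjusted limma p under 0.05, 6 were lower and 1 higher, against 2.7% lower and 3.64% higher among all genes tested. Aspm, a spindle pole protein, was at 13.3, 14.7 and 15.5 FPKM in WT and 11.7, 11.5 and 11.4 FPKM in cKO, with no overlap and little spread within cKO (log2 fold change of -0.30 with SE 0.0883, adjusted p by limma = 0.74). Cdc25c, the phosphatase that activates Cdk1, was at 4.61 ± 0.476 and 3.52 ± 0.43 FPKM, Ckap2 at 14.5 ± 0.971 and 11.9 ± 1.34 FPKM, and the spindle kinesin gene Kif15 at 6.98 ± 1.27 and 5.16 ± 0.515 FPKM (SD, n = 3 each).

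Of 23 genes for the E2F, RB, MuvB and NF-Y regulators that act on such promoters, 14 had a lower and 9 a higher mean in cKO. At an unadjusted limma p under 0.05, 2 were lower and 0 higher, against 2.7% and 3.64% of all genes tested. Nfya, a subunit of the CCAAT-binding NF-Y, was at 29.5, 33.7 and 29.3 FPKM in WT and 25.2, 25.2 and 24.4 FPKM in cKO, with no overlap (log2 fold change of -0.29 with SE 0.0872, adjusted p by limma = 0.74). E2f7, an E2F that represses its targets, was at 2.02, 2.95 and 3.14 FPKM in WT and 1.87, 1.69 and 1.77 FPKM in cKO (limma adjusted p = 0.771). Rbl2, the p130 repressor of quiescent cells, was at 14.8 ± 2.2 and 16.8 ± 0.704 FPKM, and the CHR-binding MuvB subunit gene Lin54 at 4.18 ± 0.388 and 3.56 ± 0.472 FPKM (SD, n = 3 each).

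Cell type markers differed in mean level beside these genes. In bulk tissue, fewer cells of a type and less RNA per cell cannot be told apart. The oocyte and granulosa markers that define an ovary were present, with Zp3 averaging 629.5 FPKM and Foxl2 189 FPKM in WT. Of 15 granulosa markers, 14 were tested and 9 had a lower mean in cKO, with summed levels of 1038 to 1132 FPKM in WT and 930 to 1033 FPKM in cKO. Granulosa markers scored 0.01, 0.08 and -0.09 in the WT libraries against -0.12, -0.32 and -0.26 in cKO. Subtracting it from the score of the 41 genes gave -0.11, -0.02 and 0.13 in WT and 0.03, 0.17 and 0.14 in cKO. On this relative scale the groups overlapped, and the lowest library was WT replicate 1. The granulosa score averages genes with log2 fold changes from -0.78 (Cyp19a1) to 0.50 (Inhbb), 9 lower and 5 higher. It is thus no measure of cell number, and the subtraction is a description only. Of 16 oocyte markers, 9 had a lower mean, with summed levels of 3396 to 3509 FPKM in WT and 3134 to 3476 FPKM in cKO. All 12 leukocyte markers had higher means in cKO, with summed levels of 35.4 to 60.3 FPKM in WT and 86.6 to 244 FPKM in cKO, as did all 8 endothelial markers, at 139 to 142 FPKM in WT and 158 to 165 FPKM in cKO, and all 10 surface epithelium markers, at 196 to 269 and 293 to 394 FPKM. Stroma and theca markers overlapped, at 2163 to 3136 and 2439 to 3220 FPKM, with WT replicate 1 the lowest in 6 of 10, and so did erythroid markers, at 182 to 333 and 157 to 572 FPKM. Outside the cell type lists, all 10 interferon response genes had higher means in cKO, at summed levels of 95.5 to 125 FPKM in WT and of 685, 130 and 175 FPKM in cKO replicates 1, 2 and 3. The library of cKO replicate 1 stood apart there and was also the highest for leukocyte markers, at 244 FPKM against 86.6 and 134 FPKM in the other cKO libraries. Higher means were also found in 11 of 12 p53 targets, at 101 to 129 and 144.5 to 144.9 FPKM. In these lists 0 markers were at 0 in every library. By limma 0 genes were called in any of these lists, and the smallest adjusted p, 0.32, was in the surface epithelium list. The part of these markers in the differences of the 41 genes was not tested.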

How the data were processed

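Total RNA of 6 mouse ovary libraries, 3 WT and 3 cKO, was sequenced, and the authors deposited a single table of FPKM per gene. HISAT2 2.0.5 and the builds mm10 and GRCm39 are named per the submitters' processing notes, and the table's chromosome accessions are those of GRCm39. No source used here gives the counter, annotation or strandedness. FPKM times gene length gave whole reads within 0.01 for 99.9% to 100% of values, and the implied denominators matched median-of-ratios size factors (ratio 1), so no scaling was added.

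Values were tested as log2(FPKM + 1), for the 14714 of 47205 genes whose mean reached 1 FPKM, with limma 3.58.1 in R 4.3.3 (lmFit, eBayes with trend, two-sided, Benjamini-Hochberg, threshold 0.05), and the 41 genes, all past the filter, were read from that fit. The test was checked on simulated data with planted changes larger than those of the 41 genes, so the check does not cover differences of their size. Alternatives are given below. Members, lists and motifs were chosen with earlier results of these data known. Genes given with values are Srsf1, all 41 members, up to 4 genes with the smallest limma p of each wider list, at most 2 of the highest genes of a marker list, and copies or overlapping genes.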

Additional observations from a re-analysis of the deposited data

How the results depend on the processing

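The 41 genes held 164 or more recovered reads in every library, and whether depth or the 3 libraries a group limit the calls was not tested. Across 17 alternatives 0 of the 41 genes were called in each. Their median log2 fold change ran from -0.15 to -0.07, against -0.13. The move to -0.07 came without WT replicate 2, and it was smaller than the SD of the 41 genes' score over WT libraries (0.0929) and larger than that over cKO libraries (0.0276). Genes called across the table went from 3 to 0 with no filter, to 0 with the replicate block, to 0 by limma-voom, and to 1 when only protein-coding genes were kept, which drops pseudogenes by construction. Leaving out 1 library gave 0 to 2. Members lower at an unadjusted limma p under 0.05 ran from 0 to 8 with 1 library left out, against 3. They numbered 8 without WT replicate 1, 0 without WT replicate 2, 1 without WT replicate 3 and 1 without cKO replicate 2. No share over all genes tested is given for the fits with a library left out, so these counts describe the members only. The replicate numbers gave no sign of pairing, with correlations of deviations of 0.18, -0.08 and -0.06 for same-numbered libraries, and the replicate block left 3 members lower at that level, Ccna2, Cenpf and Pola1 in place of Pola1, Nuf2 and Bub1b.

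Directions reversed for 15 members with log2 fold changes from -0.11 (Cenpe) to 0.06 (Mad2l1), and the cause was not tested. With quantile normalization Birc5 was at -0.0024 and Cdt1 at -0.0015, and with rescaling to a common total Mcm3 was at 0.0035. With 1 library left out, the log2 fold change of Mcm3 ran from -0.071 to 0.079, Mcm2 from -0.10 to 0.044, Mcm7 from -0.044 to 0.031, Cdt1 from -0.057 to 0.12, Prim1 from -0.083 to 0.056, Rrm1 from -0.056 to 0.038, Tyms from -0.15 to 0.013 and Pcna from -0.026 to 0.0028. That of Ccnb2 ran from -0.15 to 0.011, Cdk1 from -0.071 to 0.034, Plk1 from -0.13 to 0.10, Birc5 from -0.024 to 0.10, Cenpe from -0.22 to 0.0022, Ndc80 from -0.10 to 0.010 and Mad2l1 from -0.029 to 0.15. In these settings 26 of the 41 members never reversed.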

Other observations

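Members with a CCAAT box in the RefSeq promoter and those without differed in how often their mean was lower in cKO, a division chosen after the values were seen and not tested. All 26 members with the box had a lower mean, with a median log2 fold change of -0.14, and 4 of the 8 members without it did, with a median of 0.00. Among the 26, Mcm3 counts as lower at -0.0009, though its mean FPKM was slightly higher in cKO. Direction reversed in some alternative setting for Ccnb2, Cdk1, Cenpe, Mcm2, Mcm3, Mcm7, Pcna, Plk1, Prim1 and Rrm1 with the box. It also reversed for Birc5, Cdt1, Mad2l1, Ndc80 and Tyms without the box. Among all genes tested with a promoter, 51.6% of 4524 with the box and 49% of 6101 without it had a lower mean. Members with a CHR had a lower mean in 17 of 17 cases, with a median log2 fold change of -0.16, and those without it in 13 of 17, with a median of -0.08. Those with it are 15 cyclin, mitosis and cytokinesis genes and 2 replication genes, Mcm2 and Mcm7. Mcm7 has it in only 1 of its 2 promoters. The division by CHR thus largely follows that by role, where the medians were -0.16 for the 26 genes and -0.05 for the 15, and was not tested. Among genes tested, 51.3% of 1715 with a CHR and 49.8% of 8910 without it had a lower mean. Of the members that reversed, Ccnb2, Cdk1, Mcm2, Mcm7, Ndc80 and Plk1 have a CHR. The others, Birc5, Cdt1, Cenpe, Mad2l1, Mcm3, Pcna, Prim1, Rrm1 and Tyms, do not.

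Hjurp, the chaperone that places the centromere histone Cenpa and a gene of the wider mitosis list named after its values were seen, had the lowest fold change of that list and spread widely within both groups. It was at 38.6, 73.1 and 55.5 FPKM in WT and 15.1, 54.1 and 14.4 FPKM in cKO, where cKO replicate 2 lay within WT (log2 fold change -1.20, SE 0.502, limma adjusted p = 0.773). These values rest on 2247 to 11296 recovered reads per library.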
